A study of Mus musculus with 9 samples.

Results

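The basement membrane is the thin sheet of matrix under epithelia, and 35 genes for its chains, its linkers, its cell surface receptors and the enzymes that process collagen were followed in mouse embryonic stem cells. They were taken as a list of symbols, chosen with earlier results of these data known. Each matched 1 Ensembl gene of the 52636 in the count table. The list holds 9 laminin chains, 6 collagen chains, 6 linkers and other matrix glycoproteins, 9 receptors and 5 collagen-processing genes. RNA-seq had been made from 3 lines with 3 libraries each. The Esrrb+Nanog line (NanogKO:Esrrb:Nanog, called 44JN) is Nanog-deficient cells with Esrrb and Nanog added, the Esrrb line (NanogKO:Esrrb, 44J) is Nanog-deficient cells with Esrrb added, and the Nanog-null line (NanogKO, 44C6) has neither addition. Esrrb and Nanog are transcription factors of the embryonic stem cell network. By their labels the Nanog knockout is shared by all 3 lines, as are growth in serum with LIF without treatment and a flow sort for PECAM+ PDGFRA- cells. The labels give the Esrrb+Nanog and the Esrrb lines 1 genotype, N{delta}:cE:iN, and the Nanog-null line N{delta}. They do not spell out the promoters of the added genes. Each condition is 1 line, so an added gene and the line that carries it cannot be told apart, and nothing in the labels says that replicates were separate cultures, so p-values measure only the spread between these libraries.

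Laminins are trimers of an alpha, a beta and a gamma chain that polymerise at the cell surface, where integrins and dystroglycan hold them. Type IV collagen forms a second network, nidogens and the proteoglycan perlecan join both networks, and collagen chains are hydroxylated and folded in the endoplasmic reticulum before export. In the early mouse embryo the primitive endoderm and the parietal endoderm that comes from it lay down large amounts of laminin and type IV collagen, and embryonic stem cells use integrins that bind laminin and fibronectin to attach in culture.

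Libraries held 21808120 to 32496267 counts in genes, and the 35 genes took 0.551% to 0.757% of them. Nanog read 222 to 333 CPM (counts scaled to a common library size) in Esrrb+Nanog libraries, 29.7 to 35.1 CPM in Esrrb libraries and 14.3 to 16.02 CPM in Nanog-null libraries, and Esrrb read 1056 to 1151, 692 to 949 and 253 to 303 CPM in the same order of lines. Both genes were thus higher where the label says they were added, but the Nanog-null libraries still held 309 to 479 Nanog counts, Nanog was also higher in all Esrrb than in all Nanog-null libraries, and Esrrb was higher in all Esrrb+Nanog than in all Esrrb libraries. The 7 embryonic stem cell markers summed to 3577 to 3831 CPM in Esrrb+Nanog libraries, 3896 to 3971 CPM in Esrrb libraries and 2812 to 3024 CPM in Nanog-null libraries, and none of them was at 0. Pdgfra, the gene of the receptor sorted against, read 1.77 to 3.86, 5.84 to 14.1 and 0.463 to 4.43 CPM in the same lines. Replicate 2 of the Nanog-null line stood apart from its other libraries for these genes: 27 of the 32 genes that could be tested read higher in it than the mean of Nanog-null replicates 1 and 3, and 6 read at least 2-fold higher. Col4a2 was 3.32 times, Lama4 3.01 times, Col4a1 2.86 times, Col4a5 2.83 times, Sparc 2.29 times and Serpinh1 2.21 times that mean. On the log2(CPM + 1) scale its median difference from the others of its line was 0.235 over the 32 genes and 1.308 over the 4 tested collagen chains, against 0.000 over all tested genes. Markers of other cell types were higher in it too, by a median of 0.786 for 10 primitive endoderm markers, 0.532 for 7 parietal endoderm markers, 0.550 for 8 trophoblast markers and 0.546 for 7 fibroblast markers. Nanog-null replicate 1 lay on the other side, by -0.157 over the 32 genes, -1.127 over the collagen chains, -0.721 for primitive endoderm, -0.319 for parietal endoderm, -0.581 for trophoblast and -0.337 for fibroblast markers. The fibroblast markers of replicate 2 summed to the highest value of any library, 91.5 CPM, most of it Acta2 at 54.3 CPM, and its trophoblast keratins Krt8 and Krt18 read 74.2 and 102 CPM. Calls that changed, and called values that moved by over 1.5 times, without replicate 2 are given with both values, and the part of those cells in them was not tested. In bulk RNA, fewer cells of a type and less RNA per cell cannot be told apart.

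**Figure D1:**
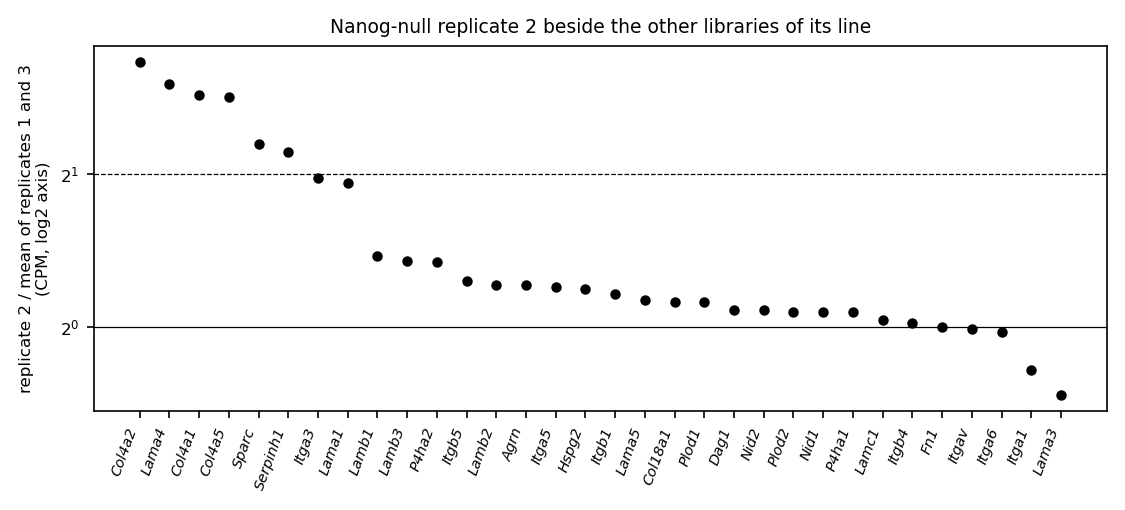
Ratio of the CPM of each of the 32 tested genes in Nanog-null replicate 2 to the mean CPM of Nanog-null replicates 1 and 3 (log2 axis); the solid line marks equality and the dashed line a 2-fold ratio. Col4a2, Lama4, Col4a1, Col4a5, Sparc and Serpinh1 lie above the dashed line.

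Most of the genes differed between the lines, in both directions, with differences of over 4-fold for Lama1, Lamb3, Col18a1, Col4a5 and Serpinh1 in at least 1 comparison. Col4a5 was rare, and its differences stayed below 4-fold without Nanog-null replicate 2. A gene was called changed at an adjusted p below 0.05 in edgeR's quasi-likelihood test on the counts, with Benjamini-Hochberg adjustment over the 16198 genes that passed its low-count filter, and log2 changes are of the line named first over the line named after it. Lamc3, Col4a6 and Col15a1 did not pass that filter, which left 32 genes. Adding Esrrb (Esrrb against Nanog-null) went with 10 higher and 14 lower genes, 75.0% of the 32, where 48.5% of all tested genes were called, 24.2% higher and 24.2% lower. Of the 32, 13 passed the threshold with at least a 2-fold change, which is 40.6%, against 16% of all tested genes. Adding Nanog on top (Esrrb+Nanog against Esrrb) went with 2 higher and 8 lower genes, 31.2%, where 13.2% of all tested genes were called, 5.43% higher and 7.75% lower. There 2 genes passed with a 2-fold change, 6.25% against 3.6% of all. For both additions together (Esrrb+Nanog against Nanog-null), 9 genes were higher and 15 lower, 75.0%, where 54.4% of all tested genes were called, 27.2% higher and 27.2% lower, and 7 genes passed with a 2-fold change, 21.9% against 18.5% of all. The median log2 change of the 32 genes was -0.076, -0.153 and -0.385 in these comparisons in turn, beside 0.006, -0.005 and 0.002 over all tested genes. Among genes with at least 5 CPM in 3 libraries, where the background is higher, 71.4% of 28 members were called against 54.2% of all genes after Esrrb, 32.1% against 15.4% after Nanog on top, and 75.0% against 60.5% after both. Without Nanog-null replicate 2 the counts were 11 higher and 13 lower after Esrrb, 3 and 11 after Nanog on top, and 10 and 13 after both. The comparisons share libraries, so each is described by its own values. Because the list was chosen with earlier results of these data known, its shares are not an independent test against all genes.

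**Figure D2:**
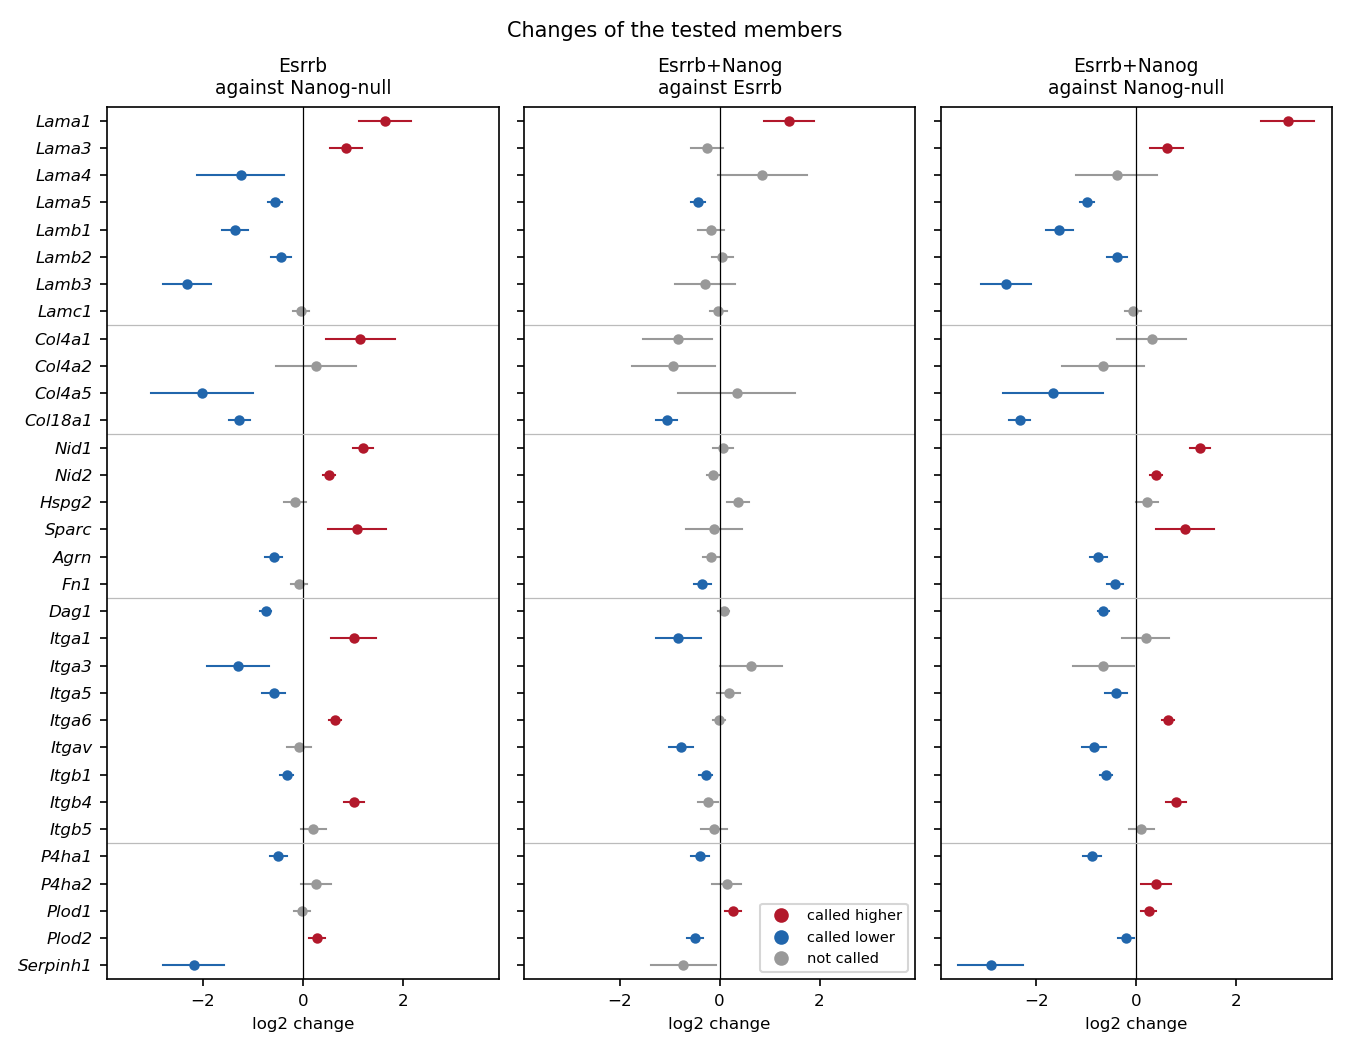
Log2 change of each of the 32 tested genes in the 3 comparisons, with 95% intervals that are not adjusted for the number of genes, in blocks for laminins, collagens, linkers and glycoproteins, receptors and collagen processing; red and blue mark genes called higher and lower at an adjusted p below 0.05 and grey marks genes that were not called. Lama1 is to the right in all 3 comparisons, and Col18a1 and Lama5 are to the left in all 3.

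Among laminin alpha chains, Lama1 RNA rose with each addition while Lama5 RNA fell. Lama1 (chr17:67697259-67822647, plus strand, mm10) codes for the alpha chain of the main laminin of the early embryo, which it forms with the Lamb1 and Lamc1 chains. Lama1 had 334, 329.8 and 404 CPM in Esrrb+Nanog cells, 103, 183 and 122 CPM in Esrrb cells and 28.1, 64.05 and 38.5 CPM in Nanog-null cells. The 3 lines did not overlap, with the lowest values in Nanog-null libraries, among which replicate 2 was the highest. Its log2 change was 1.64 ± 0.26 (SE), adjusted p = 0.000342, for Esrrb against Nanog-null, a 3.12-fold difference. For Esrrb+Nanog against Esrrb it was 1.39 ± 0.25 (SE), adjusted p = 0.00466, and for Esrrb+Nanog against Nanog-null 3.03 ± 0.27 (SE), adjusted p = 3.63e-06, or 8.15-fold. Lama5 (chr2:180176373-180225859, minus strand), the alpha chain found in most epithelial basement membranes, ran the other way. Lama5 had 278, 255 and 289 CPM in Esrrb+Nanog cells, 370, 363 and 375 CPM in Esrrb cells and 546, 589.5 and 498 CPM in Nanog-null cells. No library of one line reached the range of another. Lama5 was lower by 0.56 on the log2 scale in the Esrrb line against Nanog-null (adjusted p = 5.53e-05) and by 0.43 in the Esrrb+Nanog line against Esrrb (adjusted p = 0.00231). It was lower by 0.99 in the Esrrb+Nanog line against Nanog-null (adjusted p = 6.19e-07). Both alpha chain genes thus differed between every pair of lines, in opposite directions.

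Levels of different chains were compared per kilobase of annotated exon (RPKM). Lama1 made up 59.5% ± 1.70 of the summed RPKM of the Lama1, Lama3, Lama4 and Lama5 genes in Esrrb+Nanog cells, 29.3% ± 6.36 in Esrrb cells and 8.35% ± 2.79 in Nanog-null cells (SD, n = 3 each). Lama5 made up 39.1% ± 1.85, 68.5% ± 6.33 and 90.4% ± 2.61 in the same lines, so the order of both chains differed between the Esrrb+Nanog line and the other lines. The sum over the 4 genes moved much less: it was 57.4 to 68.2 RPKM in Esrrb+Nanog libraries, 44.2 to 51.9 RPKM in Esrrb libraries and 48.3 to 59.0 RPKM in Nanog-null libraries, with the last range overlapping both others. Lama3 and Lama4 were minor. Lama3, an alpha chain of epidermal laminin, had 8.23 to 10.3 CPM in Esrrb+Nanog cells, 9.95 to 12.2 CPM in Esrrb cells and 4.85 to 7.60 CPM in Nanog-null cells; it rose in the Esrrb line (log2 0.86, adjusted p = 0.0012) and in the Esrrb+Nanog line against Nanog-null (log2 0.61, adjusted p = 0.00911). Lama4 had 0.775, 0.804 and 1.12 CPM in Esrrb+Nanog cells, 0.415, 0.441 and 0.653 CPM in Esrrb cells and 0.602, 2.12 and 0.803 CPM in Nanog-null cells, for an alpha chain known from vessel and muscle membranes. These values amount to few reads in a library, and the Nanog-null value rested on replicate 2. The call of lower Lama4 in the Esrrb line (log2 -1.24 ± 0.45 (SE), adjusted p = 0.0369) was lost without that library, where the log2 change was -0.53 with an adjusted p of 0.241, and in 3 other alternatives, with adjusted p up to 0.108.

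**Figure D3:**
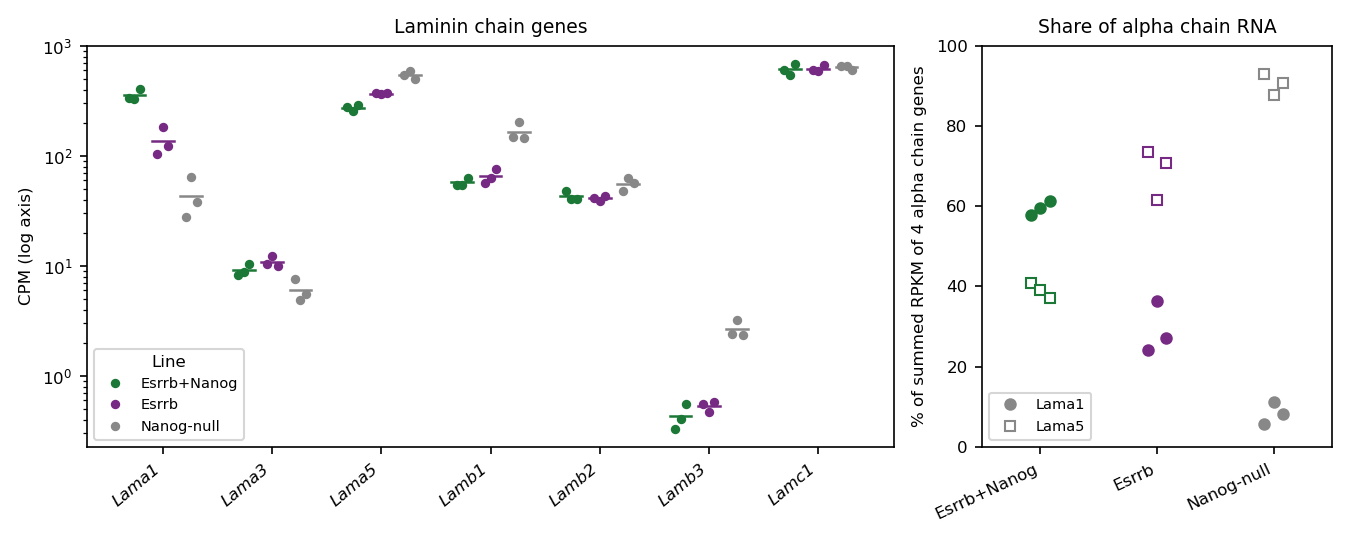
Left, CPM (log axis) of 7 laminin chain genes in each library, with horizontal bars for the mean of 3 libraries; right, the share of Lama1 and Lama5 in the summed RPKM of 4 alpha chain genes in each library. Lama1 steps down and Lama5 steps up from the Esrrb+Nanog to the Esrrb to the Nanog-null libraries, and the lines overlap for Lamc1.

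Among beta chains, Lamb1 and Lamb3 were lower in both lines with added Esrrb. Lamb1, the beta chain that pairs with Lama1 in the embryonic laminin, did not follow Lama1. Lamb1 had 54.9, 54.6 and 62.8 CPM in Esrrb+Nanog cells, 57.4, 62.7 and 75.5 CPM in Esrrb cells and 149, 204 and 146 CPM in Nanog-null cells. All Nanog-null libraries lay above all others, and the Esrrb+Nanog and Esrrb libraries overlapped. Lamb1 fell in the Esrrb line (log2 -1.35 ± 0.13 (SE), adjusted p = 9.88e-06) and in the Esrrb+Nanog line against Nanog-null (log2 -1.54 ± 0.13 (SE), adjusted p = 2.92e-06); between the lines with added Esrrb the change was -0.18, with a 95% interval of -0.44 to 0.08. Lamb3 had 0.332, 0.402 and 0.560 CPM in Esrrb+Nanog cells, 0.553, 0.472 and 0.576 CPM in Esrrb cells and 2.41, 3.23 and 2.38 CPM in Nanog-null cells, for a beta chain of epidermal laminin. The Nanog-null libraries again lay above all others, at a level far below that of Lamb1. Lamb3 changed on the log2 scale by -2.32 ± 0.24 (SE), adjusted p = 1.57e-05, in the Esrrb line and by -2.61 ± 0.26 (SE), adjusted p = 6.51e-06, in the Esrrb+Nanog line, both against Nanog-null. Lamb2, a beta chain of mature muscle, nerve and kidney membranes, averaged 43.1 ± 4.34, 41.6 ± 2.18 and 56.2 ± 7.68 CPM in Esrrb+Nanog, Esrrb and Nanog-null cells (SD, n = 3 each) and was called lower against Nanog-null in the Esrrb line (log2 -0.43, adjusted p = 0.00444) and in the Esrrb+Nanog line (log2 -0.38, adjusted p = 0.008). The common gamma chain was not called. Lamc1 had 599, 548 and 689 CPM in Esrrb+Nanog cells, 601, 596 and 674 CPM in Esrrb cells and 658, 653 and 604 CPM in Nanog-null cells, and all lines overlapped. Its log2 changes of -0.03, -0.03 and -0.06 in the comparisons in turn did not pass the test, with 95% intervals of -0.20 to 0.13, -0.19 to 0.14 and -0.23 to 0.10. Per length, Lamc1 summed with Lamc3 reached 66.2 to 83.3 RPKM in Esrrb+Nanog libraries, 72.1 to 81.5 RPKM in Esrrb libraries and 73.1 to 79.6 RPKM in Nanog-null libraries, above the 3 beta chains together, at 12.3 to 13.5, 12.7 to 14.9 and 23.3 to 31.5 RPKM. Lamc3, a gamma chain of brain and retina, had 5, 6 and 8 counts in all over the 3 libraries of each of these lines and was not tested.

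The collagen chains split by gene. Type XVIII collagen fell with each addition, while the type IV chains Col4a1 and Col4a2 had their highest means in the Esrrb line. Whether the differences of these type IV chains were called depended on which of the uneven Nanog-null libraries were in the fit. Col18a1 (chr10:77052178-77166548, minus strand) codes for a basement membrane collagen that carries heparan sulphate and releases endostatin. Col18a1 had 129, 139.8 and 179 CPM in Esrrb+Nanog cells, 319.6, 296 and 322 CPM in Esrrb cells and 704, 810.4 and 738 CPM in Nanog-null cells. No line overlapped another. The log2 change was -1.27 ± 0.11 (SE), adjusted p = 2.87e-06, for Esrrb against Nanog-null; -1.06 ± 0.11 (SE), adjusted p = 0.000102, for Esrrb+Nanog against Esrrb; and -2.33 ± 0.11 (SE), adjusted p = 2.67e-08, for Esrrb+Nanog against Nanog-null, where the Esrrb+Nanog level was 0.199 of the Nanog-null level. Per length it was 21.2 ± 3.73 RPKM in Esrrb+Nanog cells, 44.5 ± 2.07 RPKM in Esrrb cells and 107 ± 7.77 RPKM in Nanog-null cells (SD, n = 3 each), the highest of the 6 collagen chains in each line. Col15a1, its closest relative among collagens, had 15, 19 and 9 counts in all over the libraries of these lines and was not tested.

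Col4a1 and Col4a2 code for the chains of the most common type IV collagen and lie head to head on chromosome 8, transcribed away from each other. Their annotated RefSeq start sites in GRCm38.p6 (mm10) lie at 11312826 on the minus strand for Col4a1 and at 11312805 on the plus strand for Col4a2, so their first exons share 22 bases. The plus strand at chr8:11312801-11312830 is shown because both genes start in it, with the shared bases in capitals.
Col4a1-Col4a2 start region: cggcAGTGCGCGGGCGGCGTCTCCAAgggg

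Col4a1 had 57.4, 61.5 and 61.3 CPM in Esrrb+Nanog cells, 103, 114 and 106 CPM in Esrrb cells and 19.3, 85.3 and 40.3 CPM in Nanog-null cells. The Esrrb libraries were the highest and close together, the Esrrb+Nanog libraries were level at a lower value, and the Nanog-null libraries spread over a range that held the Esrrb+Nanog values. Col4a2 had 20.01, 21.4 and 17.8 CPM in Esrrb+Nanog cells, 33.8, 39.05 and 39.6 CPM in Esrrb cells and 9.92, 58.3 and 25.2 CPM in Nanog-null cells. Here Nanog-null replicate 2 lay above every other library and replicate 1 below every other. Col4a1 rose in the Esrrb line, at a log2 value of 1.15 ± 0.35 (SE), adjusted p = 0.0173; leaving out Nanog-null replicate 2 gave 1.82 (adjusted p = 0.000107), while the call was lost without Nanog-null replicate 3, with an adjusted p of 0.0744. Col4a2 did not pass that test (log2 0.26 ± 0.41 (SE), adjusted p = 0.631), and without Nanog-null replicate 2 its log2 change was 1.06 with an adjusted p of 0.0104. Without Nanog-null replicate 1 it was -0.18 with an adjusted p of 0.608. For Esrrb+Nanog against Esrrb, neither passed: the log2 changes were -0.84 ± 0.35 (SE), adjusted p = 0.138, for Col4a1 and -0.93 ± 0.42 (SE), adjusted p = 0.175, for Col4a2, although all Esrrb+Nanog libraries lay below all Esrrb libraries for both genes. Without Nanog-null replicate 2 both passed, with adjusted p of 0.0149 for Col4a1 and 0.0306 for Col4a2. Both also passed without Nanog-null replicate 1, at 0.0219 and 0.0314. For Esrrb+Nanog against Nanog-null the log2 changes were 0.31, adjusted p = 0.484, for Col4a1 and -0.67, adjusted p = 0.202, for Col4a2. Without Nanog-null replicate 2, Col4a1 was called higher there at 0.99 with an adjusted p of 0.00355, and Col4a2 was at 0.14 with an adjusted p of 0.702. Without Nanog-null replicate 1 instead, Col4a1 was at -0.08 with an adjusted p of 0.793. Col4a2 was then called lower, at -1.1 with an adjusted p of 0.00526. When the Nanog-null libraries were left out of the fit, so that their spread no longer entered, the adjusted p was 0.000198 for Col4a1 and 0.000858 for Col4a2 at log2 changes of -0.84 and -0.92. The 2 genes shared a start region but not a fixed ratio. Col4a1 RNA per length was 2.54, 2.55 and 3.06 times Col4a2 RNA in Esrrb+Nanog libraries, 2.7, 2.6 and 2.37 times in Esrrb libraries and 1.72, 1.3 and 1.42 times in Nanog-null libraries, where all ratios lay below those of the other lines.

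Col4a5 and Col4a6, a second head-to-head pair of type IV chains on chromosome X whose start sites lie 1343 bases apart, were both rare. Col4a5 had 0.923, 0.563 and 0.560 CPM in Esrrb+Nanog cells, 0.553, 0.189 and 0.922 CPM in Esrrb cells and 1.16, 3.81 and 1.54 CPM in Nanog-null cells. Each Nanog-null library was above all others. Col4a5 was called lower in the Esrrb line (log2 -2.01 ± 0.52 (SE), adjusted p = 0.00744) and in the Esrrb+Nanog line against Nanog-null (log2 -1.67 ± 0.51 (SE), adjusted p = 0.0152), and without Nanog-null replicate 2 the first was -1.35 with an adjusted p of 0.0367. The second call was lost without that library, at -1.0 with an adjusted p of 0.0899, and without Esrrb+Nanog replicate 2 or 3, at 0.053 and 0.0535. Col4a6 was not tested, with 7 counts in all over the Esrrb+Nanog libraries, 7 over the Esrrb libraries and 50 over the Nanog-null libraries.

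Of the linkers and matrix glycoproteins, the nidogens and Sparc rose with Esrrb, agrin fell, perlecan was not called, and fibronectin fell where Nanog was added. Nid1 (chr13:13437551-13512269, plus strand) codes for nidogen, which bridges laminin and type IV collagen. Nid1 had 147, 147 and 188 CPM in Esrrb+Nanog cells, 151, 169.6 and 138 CPM in Esrrb cells and 63.5, 69.1 and 66.1 CPM in Nanog-null cells. Each Nanog-null library lay below all others, and the lines with added Esrrb overlapped. The log2 change of Nid1 was 1.21 ± 0.10 (SE), adjusted p = 3.49e-06, in the Esrrb line, 0.07 ± 0.10 (SE), adjusted p = 0.697, for Esrrb+Nanog against Esrrb, and 1.28 ± 0.10 (SE), adjusted p = 1.62e-06, for Esrrb+Nanog against Nanog-null. Nid2, the second nidogen, was also lowest in Nanog-null cells, at 594 to 629 CPM in Esrrb+Nanog cells, 624 to 694 CPM in Esrrb cells and 439 to 484 CPM in Nanog-null cells, and was called higher against Nanog-null in the Esrrb line (log2 0.53, adjusted p = 2.98e-05) and in the Esrrb+Nanog line (log2 0.40, adjusted p = 0.000183). Its exons share 8.4% of their bases with Rtraf on the opposite strand, and Itgb4, Plod2, Lamc3 and Itgav overlap other genes over 5.9% to 7.7% of theirs. Reads there could not be assigned with certainty, since no strand setting is given. Per length Nid2 averaged 118 ± 3.58, 129 ± 7.17 and 88.99 ± 4.36 RPKM in Esrrb+Nanog, Esrrb and Nanog-null cells, above Nid1 at 23.1 ± 3.36, 22.01 ± 2.31 and 9.54 ± 0.401 RPKM (SD, n = 3 each).

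Sparc codes for a secreted protein that binds collagen and is abundant in parietal endoderm. Sparc had 100.3, 136 and 148 CPM in Esrrb+Nanog cells, 118, 170.3 and 128 CPM in Esrrb cells and 36.9, 104 and 53.99 CPM in Nanog-null cells. Esrrb libraries all lay above the Nanog-null libraries, while Nanog-null replicate 2 overlapped the Esrrb+Nanog libraries. Sparc was called higher in the Esrrb line (log2 1.09 ± 0.30 (SE), adjusted p = 0.00924) and in the Esrrb+Nanog line against Nanog-null (log2 0.98 ± 0.30 (SE), adjusted p = 0.0145), which were 1.59 and 1.49 without Nanog-null replicate 2, with adjusted p of 0.000196 and 0.000222. The second call was lost without Nanog-null replicate 3 or without Esrrb+Nanog replicate 3, with adjusted p of 0.065 and 0.0501. Fn1 had 1422, 1133 and 1216 CPM in Esrrb+Nanog cells, 1713, 1506 and 1584 CPM in Esrrb cells and 1779, 1685 and 1595 CPM in Nanog-null cells; Fn1 codes for fibronectin, the ligand of the Itga5 integrin. The Esrrb+Nanog libraries lay below the others, and the Esrrb and Nanog-null libraries overlapped. Fn1 fell in the Esrrb+Nanog line against Esrrb (log2 -0.35 ± 0.08 (SE), adjusted p = 0.0196) and against Nanog-null (log2 -0.42 ± 0.08 (SE), adjusted p = 0.00127), but not in the Esrrb line, at -0.07 with a 95% interval of -0.24 to 0.09. The call against Esrrb was lost in 4 of 16 alternatives, with adjusted p up to 0.0915. Hspg2 had 886, 690.2 and 808 CPM in Esrrb+Nanog cells, 602, 671 and 575 CPM in Esrrb cells and 716, 769.5 and 574 CPM in Nanog-null cells, for perlecan. The Esrrb+Nanog libraries lay above the Esrrb libraries and overlapped the Nanog-null libraries. Perlecan missed the threshold in each comparison, closest for Esrrb+Nanog against Esrrb at a log2 value of 0.37 ± 0.11 (SE), adjusted p = 0.0533, and it passed in 9 of 16 alternatives, without Nanog-null replicate 2 at 0.0384 among them. Agrn, which codes for the heparan sulphate proteoglycan agrin, averaged 228 ± 18.6, 258 ± 13.3 and 386 ± 43.5 CPM in Esrrb+Nanog, Esrrb and Nanog-null cells (SD, n = 3 each) and fell against Nanog-null in the Esrrb line (log2 -0.58, adjusted p = 0.000183) and in the Esrrb+Nanog line (log2 -0.76, adjusted p = 1.99e-05).

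**Figure D4:**
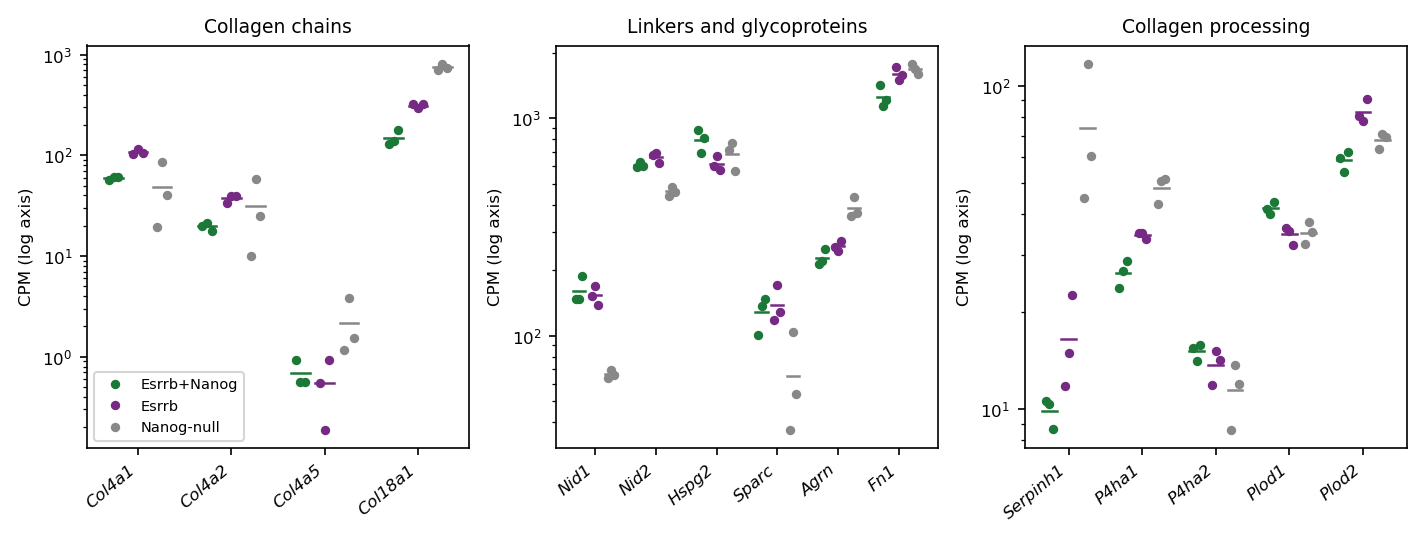
CPM (log axes) of collagen chain, linker and glycoprotein, and collagen-processing genes in each library, with bars for the mean of 3 libraries. Col18a1 and Serpinh1 step up from the Esrrb+Nanog to the Nanog-null libraries, Nid1 is lowest in the Nanog-null libraries, and the Nanog-null libraries are spread for Col4a1, Col4a2, Sparc and Serpinh1.

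Of the 9 receptor genes, none that was called against Nanog-null in the Esrrb+Nanog line reached a 2-fold change, and 3 did in the Esrrb line, Itga1, Itga3 and Itgb4. The laminin-binding pair Itga6 and Itgb4 rose in the lines with added Esrrb. Itga6 had 309, 283 and 295 CPM in Esrrb+Nanog cells, 304, 276 and 315 CPM in Esrrb cells and 188, 188 and 197 CPM in Nanog-null cells. All Nanog-null libraries were below all others. The log2 change of Itga6, the main laminin-binding alpha chain of embryonic stem cells, was 0.64 ± 0.06 (SE), adjusted p = 9.10e-06, in the Esrrb line and 0.63 ± 0.06 (SE), adjusted p = 7.72e-06, in the Esrrb+Nanog line against Nanog-null, and -0.01 between the lines with added Esrrb, with a 95% interval of -0.14 to 0.11. Itgb4 had 10.8, 11.8 and 11.3 CPM in Esrrb+Nanog cells, 12.96, 14.5 and 12.5 CPM in Esrrb cells and 6.35, 6.62 and 6.62 CPM in Nanog-null cells, for the beta chain that pairs with Itga6 in hemidesmosomes. Nanog-null libraries were the lowest and close together. Itgb4 changed on the log2 scale by 1.03 ± 0.10 (SE), adjusted p = 1.11e-05, in the Esrrb line and by 0.79 ± 0.10 (SE), adjusted p = 6.23e-05, in the Esrrb+Nanog line, both against Nanog-null. Itgb1, the shared partner of Itga1, Itga3, Itga5 and Itga6, went down. Itgb1 had 191, 199 and 195 CPM in Esrrb+Nanog cells, 234, 242 and 236 CPM in Esrrb cells and 284, 326 and 278 CPM in Nanog-null cells. No line overlapped another. Its log2 changes were -0.32, adjusted p = 0.00164, for Esrrb against Nanog-null, -0.28, adjusted p = 0.0145, for Esrrb+Nanog against Esrrb, and -0.60, adjusted p = 1.35e-05, for Esrrb+Nanog against Nanog-null. Dag1 codes for dystroglycan, a laminin receptor outside the integrin family, and averaged 199.6 ± 5.91, 188 ± 4.34 and 316 ± 15.4 CPM in Esrrb+Nanog, Esrrb and Nanog-null cells (SD, n = 3 each). It fell in the Esrrb line (log2 -0.74, adjusted p = 1.45e-06) and in the Esrrb+Nanog line (log2 -0.66, adjusted p = 2.24e-06) against Nanog-null.

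Itga3 had 29.9, 50.5 and 47.1 CPM in Esrrb+Nanog cells, 20.3, 40.4 and 21.7 CPM in Esrrb cells and 46.5, 99.6 and 55.4 CPM in Nanog-null cells; this alpha chain also binds laminin. The Nanog-null libraries lay above the Esrrb libraries, and the Esrrb+Nanog libraries overlapped both. Itga3 fell in the Esrrb line (log2 -1.29 ± 0.32 (SE), adjusted p = 0.00534), and replicate 2 was its highest library in each line. It was not called for Esrrb+Nanog against Esrrb (log2 0.63, adjusted p = 0.227) or against Nanog-null (log2 -0.66, adjusted p = 0.0905). With a replicate block in the fit both were called, at adjusted p of 0.00717 and 0.00221. Itga1 had 2.84, 3.42 and 2.56 CPM in Esrrb+Nanog cells, 4.63, 6.86 and 4.07 CPM in Esrrb cells and 2.18, 2.23 and 3.25 CPM in Nanog-null cells, for an alpha chain that binds collagen. The Esrrb libraries lay above all others. Itga1 rose in the Esrrb line (log2 1.02 ± 0.23 (SE), adjusted p = 0.00361) and fell in the Esrrb+Nanog line against Esrrb (log2 -0.83 ± 0.23 (SE), adjusted p = 0.0354), a call that was lost in 5 of 15 alternatives with adjusted p up to 0.109. Itga5 and Itgav, alpha chains of the list that bind fibronectin, were called lower in the Esrrb+Nanog line against Nanog-null. Itga5, the alpha chain of the main fibronectin receptor, averaged 48.2 ± 7.49, 42.6 ± 4.05 and 63.8 ± 6.87 CPM in Esrrb+Nanog, Esrrb and Nanog-null cells (SD, n = 3 each) and fell against Nanog-null in the Esrrb line (log2 -0.58, adjusted p = 0.00148) and in the Esrrb+Nanog line (log2 -0.40, adjusted p = 0.0112). Itgav had 33.2, 27.6 and 25.3 CPM in Esrrb+Nanog cells, 51.6, 40.1 and 55.1 CPM in Esrrb cells and 53.4, 51.3 and 50.05 CPM in Nanog-null cells; Itgav pairs with several beta chains to bind fibronectin and vitronectin. Only the Esrrb+Nanog libraries stood apart, at the low end, while Esrrb and Nanog-null libraries overlapped. Itgav fell in the Esrrb+Nanog line against Esrrb (log2 -0.77 ± 0.12 (SE), adjusted p = 0.00211) and against Nanog-null (log2 -0.85 ± 0.12 (SE), adjusted p = 0.000129). Itgb5, one of its beta partners, averaged 29.6 ± 2.10, 31.99 ± 5.07 and 27.5 ± 4.16 CPM (SD, n = 3 each) and was not called in any comparison.

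**Figure D5:**
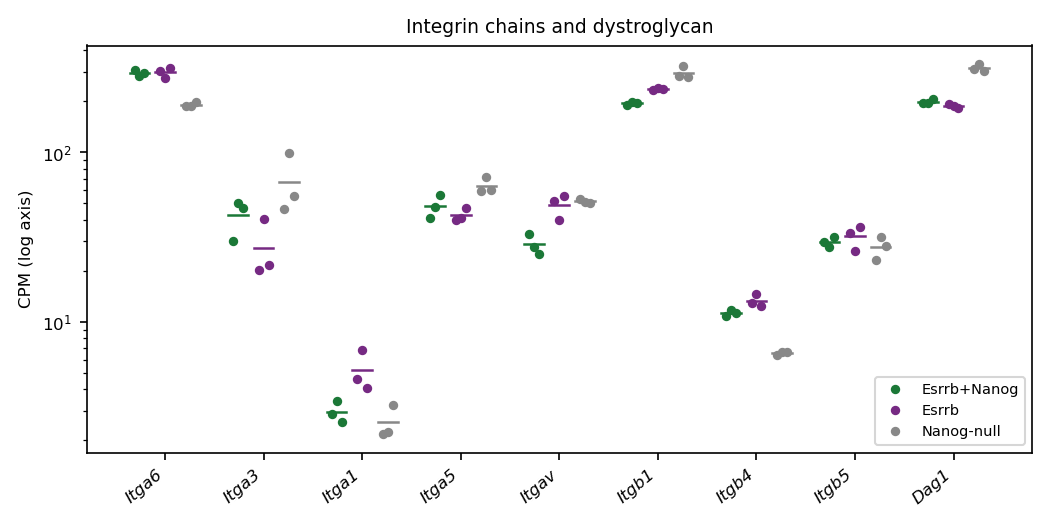
CPM (log axis) of the 8 integrin chain genes and dystroglycan in each library, with bars for the mean of 3 libraries. Itga6 and Itgb4 are lowest in the Nanog-null libraries, Itgb1, Itga5 and Dag1 are highest there, and Itgav is lowest in the Esrrb+Nanog libraries.

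Among the collagen-processing genes, the chaperone Serpinh1 changed most and the hydroxylases changed by less than 2-fold. Serpinh1 (chr7:99345376-99353239, minus strand) codes for the chaperone that binds procollagen in the endoplasmic reticulum. Serpinh1 had 10.6, 10.3 and 8.65 CPM in Esrrb+Nanog cells, 11.8, 14.9 and 22.5 CPM in Esrrb cells and 45.0, 117 and 60.8 CPM in Nanog-null cells. All Nanog-null libraries lay above all Esrrb libraries, which lay above all Esrrb+Nanog libraries, and Nanog-null replicate 2 was the highest. The log2 change was -2.18 ± 0.31 (SE), adjusted p = 0.000154, in the Esrrb line and -2.91 ± 0.33 (SE), adjusted p = 1.95e-05, in the Esrrb+Nanog line, both against Nanog-null. Leaving out any 1 library kept both calls, with log2 changes between -2.47 and -1.71 and between -3.19 and -2.43. For Esrrb+Nanog against Esrrb the change of -0.73 ± 0.33 (SE), adjusted p = 0.175, did not pass, and without Nanog-null replicate 2 the adjusted p was 0.0482. P4ha1, a catalytic subunit of collagen prolyl hydroxylase, went the same way: it averaged 26.3 ± 2.504, 34.5 ± 0.809 and 48.4 ± 4.71 CPM in Esrrb+Nanog, Esrrb and Nanog-null cells (SD, n = 3 each). Its log2 changes were -0.49, adjusted p = 0.000905, for Esrrb against Nanog-null, -0.39, adjusted p = 0.0157, for Esrrb+Nanog against Esrrb, and -0.88, adjusted p = 1.00e-05, for both additions together. The second call was lost in 3 of 16 alternatives, with adjusted p up to 0.062. P4ha2, the other catalytic subunit on the list, averaged 15.1 ± 0.905, 13.7 ± 1.65 and 11.4 ± 2.58 CPM and was called higher for Esrrb+Nanog against Nanog-null alone (log2 0.40, adjusted p = 0.0462), a call that was lost in 9 of 16 alternatives, with adjusted p up to 0.185.

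The lysyl hydroxylases Plod1 and Plod2 differed little. Plod2 had 59.8, 54.1 and 62.2 CPM in Esrrb+Nanog cells, 80.4, 77.4 and 90.8 CPM in Esrrb cells and 63.6, 70.8 and 69.3 CPM in Nanog-null cells. The Esrrb libraries were highest, the Esrrb+Nanog libraries lowest, and no line overlapped another. Plod2 rose in the Esrrb line (log2 0.29 ± 0.08 (SE), adjusted p = 0.0105) and fell in the Esrrb+Nanog line against it (log2 -0.5 ± 0.08 (SE), adjusted p = 0.00214). Against Nanog-null, the Esrrb+Nanog value (-0.21, adjusted p = 0.0418) lost its call in 6 of 16 alternatives, without Nanog-null replicate 2 among them at an adjusted p of 0.112, and the Esrrb call was lost without Nanog-null replicate 1, at 0.0615. Plod1 had 41.5, 40.02 and 43.6 CPM in Esrrb+Nanog cells, 36.2, 35.6 and 32.2 CPM in Esrrb cells and 32.4, 37.8 and 35.2 CPM in Nanog-null cells. The Esrrb+Nanog libraries lay just above the others. Plod1 was called higher in the Esrrb+Nanog line against Esrrb (log2 0.27 ± 0.08 (SE), adjusted p = 0.0457) and against Nanog-null (log2 0.25 ± 0.08 (SE), adjusted p = 0.0192), calls that were lost in 9 and 3 of 16 alternatives, with adjusted p up to 0.151 and 0.103.

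Serpinh1 and P4ha1 were the collagen-processing genes that were called lower against Nanog-null in both other lines, and the 250 bases before their RefSeq start sites (GRCm38.p6) are shown for that reason, with ACGTG or its reverse complement CACGT, a form of the core of the hypoxia response element, in capitals. Other forms of that core were not searched or marked. Of the 35 genes, 25 had a promoter in the RefSeq table, with 30 windows. Lama1, Lama3, Lama4, Lamc1, Lamc3, Nid2, Fn1, Itga6, Itgb4 and Plod2 had none, so the motif counts do not cover them. Of these, Lama1, Lama3, Nid2, Itga6, Itgb4 and Plod2 were called higher in the Esrrb line.
Serpinh1, chr7:99353240-99353489, minus strand: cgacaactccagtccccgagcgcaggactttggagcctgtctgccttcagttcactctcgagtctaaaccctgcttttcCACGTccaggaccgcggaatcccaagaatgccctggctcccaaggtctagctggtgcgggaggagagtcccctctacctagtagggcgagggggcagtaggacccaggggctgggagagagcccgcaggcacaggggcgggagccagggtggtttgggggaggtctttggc
P4ha1, chr10:59323046-59323295, plus strand: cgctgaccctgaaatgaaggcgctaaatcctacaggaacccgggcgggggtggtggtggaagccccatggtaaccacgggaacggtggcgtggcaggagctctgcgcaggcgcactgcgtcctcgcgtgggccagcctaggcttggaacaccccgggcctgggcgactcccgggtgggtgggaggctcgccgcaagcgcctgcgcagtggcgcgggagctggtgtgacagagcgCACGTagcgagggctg
ACGTG, which also lies within the E-box CACGTG, was in 3 of the 30 windows on either strand, those of Serpinh1, P4ha1 and P4ha2, and in 16.6% of the 32851 promoter windows of the table. The estrogen-related receptor motif AAGGTCA was in 0 of the 30 windows and in 4.08% of all windows, and its longer form TCAAGGTCA was in 0 and in 0.387%. GGGCGG, the GC box, was in 21 windows of 18 genes and in 32.7% of all windows, and TATAAA was in 1, that of Plod1, and in 12.4%. A match describes the letters in a window and is not a measured binding site.

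Further genes of the same pathways, in lists that hold none of the 35, were tested in the same fit. The background shares given above for each comparison apply to all counts here. Of the 12 other integrin chains, 7 were tested: 2 rose and 2 fell in the Esrrb line, 2 rose and 0 fell in the Esrrb+Nanog line against Esrrb, and 4 rose and 2 fell against Nanog-null. Itga9 had 25.3, 26.9 and 36.3 CPM in Esrrb+Nanog cells, 6.05, 5.10 and 5.96 CPM in Esrrb cells and 8.71, 10.4 and 8.06 CPM in Nanog-null cells; this alpha chain binds tenascin and other matrix ligands. For Esrrb+Nanog against Esrrb its log2 difference was 2.37 ± 0.15 (SE), adjusted p = 6.33e-06, and the Esrrb+Nanog libraries lay above all others. Of 19 other genes for collagen folding and crosslinking, 16 were tested: 4 rose and 5 fell with Esrrb, 1 rose and 0 fell with Nanog on top, and 4 rose and 5 fell with both. Among them Colgalt1, a collagen galactosyltransferase, rose in the Esrrb line (log2 0.48, adjusted p = 7.25e-05), and Pxdn, the peroxidase that crosslinks type IV collagen, fell (log2 -1.16, adjusted p = 7.33e-05). All 8 genes for collagen export from the endoplasmic reticulum were tested, and 3 rose and 2 fell, 0 rose and 0 fell and 3 rose and 2 fell in the comparisons in turn, none of them by 2-fold. Of 12 matrix proteases and inhibitors, 0 rose and 6 fell with Esrrb, 2 rose and 0 fell with Nanog on top and 1 rose and 6 fell with both, among them the metalloprotease inhibitor Timp2, which fell in the Esrrb line (log2 -2.24, adjusted p = 1.46e-05) and rose in the Esrrb+Nanog line against it (log2 1.13, adjusted p = 0.0109).

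On the cell side, 11 of 12 genes of dystroglycan glycosylation and its complex were tested: 2 rose and 3 fell with Esrrb, 1 rose and 0 fell with Nanog on top and 3 rose and 3 fell with both. The sarcoglycan gene Sgcb rose in the Esrrb line (log2 0.98, adjusted p = 0.000214), from a mean of 3.39 to 6.68 CPM. The summed level of the 12 genes was lower there, at 372 to 456 CPM against 586 to 618 CPM in Nanog-null libraries. It was 352 to 432 CPM in Esrrb+Nanog libraries. Of 12 focal adhesion adaptors, 11 were tested: 2 rose and 5 fell with Esrrb, 1 rose and 1 fell with Nanog on top and 3 rose and 7 fell with both. Parva, which codes for parvin, fell in the Esrrb line (log2 -2.5, adjusted p = 2.25e-05) and Fermt2, which codes for a kindlin that activates integrins, rose (log2 0.93, adjusted p = 1.66e-06). Of 9 fibrillar and type VI collagen chains, 8 were tested: 2 rose and 5 fell with Esrrb, 1 rose and 1 fell with Nanog on top and 1 rose and 4 fell with both. They summed to 52.3 to 59.4 CPM in Esrrb+Nanog libraries, 33.2 to 38.9 CPM in Esrrb libraries and 29.4 to 76.8 CPM in Nanog-null libraries. The 6 collagen chains of the list summed to 208 to 259, 449 to 468 and 735 to 959 CPM, most of it Col18a1. The type IV chains were nearer to the fibrillar and type VI sums. Col4a1 averaged 60.05, 107.8 and 48.3 CPM and Col4a2 19.7, 37.5 and 31.1 CPM in the same order of lines.

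Markers of other cell types also differed between the lines. Of 11 primitive endoderm markers 10 were tested: 3 rose and 2 fell in the Esrrb line, 0 rose and 4 fell in the Esrrb+Nanog line against Esrrb and 1 rose and 4 fell against Nanog-null. They summed to 94.9 to 144 CPM in Esrrb+Nanog libraries, 115 to 149 CPM in Esrrb libraries and 269 to 407 CPM in Nanog-null libraries, most of it Lrp2, which was 70.2 to 126, 81.2 to 89.1 and 242 to 392 CPM. Gata6 had 3.62, 10.6 and 6.47 CPM in Esrrb+Nanog cells, 13.5, 39.02 and 22.9 CPM in Esrrb cells and 1.39, 6.09 and 3.51 CPM in Nanog-null cells; Gata6 is a defining factor of that lineage. Its highest library was Esrrb replicate 2, which was also the highest Esrrb library for Lama1, Col4a1, Nid1 and Sparc. Esrrb replicate 3 was the highest of that line for Col4a2, Lamb1, Lamc1 and Serpinh1. Over the 32 genes, the median log2 difference of Esrrb replicate 2 from the others of its line was -0.014. Of the 7 parietal endoderm markers, 1 rose and 3 fell in the Esrrb line, 0 rose and 0 fell with Nanog on top and 1 rose and 5 fell with both. Their sums of 259.5 to 393, 229 to 466 and 47.04 to 106 CPM in Esrrb+Nanog, Esrrb and Nanog-null libraries were nearly all Vim, and no other marker of the list passed 7.63 CPM in any library. Of the 9 trophoblast markers 8 were tested, 0 rose and 6 fell, 0 rose and 1 fell and 0 rose and 5 fell in the comparisons in turn, with sums of 49.8 to 57.4, 36.8 to 63.7 and 101 to 251 CPM in the 3 lines. The untested marker Elf5 was at 0 in all Esrrb libraries and nearly absent elsewhere, with 4 counts in all over the Esrrb+Nanog libraries and 7 over the Nanog-null libraries. Of the 11 fibroblast markers 7 were tested, 1 rose and 4 fell, 0 rose and 0 fell and 1 rose and 3 fell, with sums of 14.8 to 23.2, 13.8 to 22.03 and 19.9 to 91.5 CPM. Postn was at 0 in all Esrrb+Nanog and Esrrb libraries and had only 7 counts in all over the Nanog-null libraries. Dcn was at 0 in all Esrrb+Nanog libraries, with 5 counts over the Esrrb libraries and 14 over the Nanog-null libraries. The part of such cells in the laminin, type IV collagen, Sparc and Serpinh1 values was not tested.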

How the data were processed

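RNA-seq of 3 mouse embryonic stem cell lines with 3 libraries each was used. Per the labels' protocols, total RNA from sorted cells was treated with DNase and depleted of ribosomal RNA, and libraries were made with NEBNext kits. STAR 2.5.3a, bcl2fastq 2.19.1 and the build mm10 are named in the submitters' processing notes. The deposited values are raw counts per Ensembl gene, per the file headers, whereas strand setting and annotation were not given in the sources used here. The table has 15 library columns; the 9 that matched the samples were used and 6 were not used here. Symbols, positions and exon lengths came from GENCODE M21 (mm10) and promoter sequences from RefSeq (GRCm38.p6). Counts were fitted with edgeR 4.0.16 in R 4.3.3: default low-count filter, TMM factors, 1 quasi-likelihood fit over the 9 libraries whose single term was the line, and Benjamini-Hochberg adjustment over 16198 genes. Standard errors are the absolute log2 change divided by the square root of F. CPM values use the same factors and no pseudocount. Alternatives were DESeq2 1.42.0, other scaling, other filters, a fit of only the compared lines, a replicate block and leaving out each library. The fit was tested on simulated data. The 35 genes, the other lists and the alternatives were chosen with earlier results of these data known. Library values are given for genes called with at least a 2-fold change and for the pair of genes with the highest mean CPM in each role, and others were added beside them; from each other list, genes were named among those with the smallest adjusted p of a comparison. Results of a few genes in those lists are not reported here.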

Additional observations from a re-analysis of the deposited data

How the results depend on the processing

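Of 58 called member changes, 46 kept their direction and call in every alternative that could test them (16, or 15 for Lamb3, Itga1 and Col4a5, which the filter at 5 CPM removed), 12 lost the call in at least 1, and 0 reversed; over all 1524 refitted values, 1417 kept direction and call, 50 lost it, 36 gained it and 21 reversed. Leaving out 1 library moved the members called for Esrrb against Nanog-null to 9 to 11 higher and 13 to 16 lower, for Esrrb+Nanog against Esrrb to 1 to 3 higher and 5 to 11 lower, and for Esrrb+Nanog against Nanog-null to 6 to 10 higher and 13 to 17 lower. Without Esrrb replicate 1, 1 member was higher and 5 lower than in the Esrrb line, among 1105 called genes in all, against 2135 with all libraries; the totals were 1378 without Esrrb replicate 3 and 1215 without Esrrb+Nanog replicate 2, which left 5 members lower. For that comparison, scaling by library totals gave 1386 genes higher and 941 lower over all genes, beside 880 and 1255. With a replicate block, 10 members were higher and 14 lower after Esrrb, 3 and 8 after Nanog on top, and 9 and 16 after both. The block gave Itga3 calls at 0.67 (adjusted p = 0.00717) for Esrrb+Nanog against Esrrb and at -0.61 (adjusted p = 0.00221) for Esrrb+Nanog against Nanog-null, gave Hspg2 one (adjusted p = 0.04) and took one from Plod1 (adjusted p = 0.0569), both for Esrrb+Nanog against Esrrb. Deviations of same-numbered libraries correlated with r from -0.06 to 0.43. All 3 pairs of replicates 2 and 1 pair of replicates 1 passed 0.1, but no pair of replicates 3 did, and 4 of 18 pairs of different number passed it too, so the numbers were not taken to pair the libraries. All 15 results that reversed were uncalled. Leaving out 1 library gave log2 changes for Esrrb against Nanog-null of -0.18 to 1.06 for Col4a2, -0.17 to 0.05 for Itgav, -0.09 to 0.00 for Lamc1 and -0.10 to 0.03 for Plod1; for Esrrb+Nanog against Esrrb of -0.10 to 0.90 for Col4a5, -0.07 to 0.03 for Itga6, -0.02 to 0.10 for Lamb2, -0.12 to 0.05 for Lamc1, -0.06 to 0.15 for Nid1 and -0.23 to 0.06 for Sparc; and for Esrrb+Nanog against Nanog-null of -0.08 to 0.99 for Col4a1, -1.10 to 0.14 for Col4a2, -0.02 to 0.20 for Itgb5, -0.69 to 0.33 for Lama4 and -0.15 to 0.02 for Lamc1. Scaling by library totals reversed Itga6 to 0.05 and Lamc1 to 0.04 for Esrrb+Nanog against Esrrb. The cause of these shifts was not tested. Without the low-count filter, adjusted p fell to values as small as 3.221e-297 (Lama1, Esrrb+Nanog against Nanog-null), so a call gained there carries little weight.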
